A study of Macaca mulatta with 6 samples.

Results

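The complement components and regulators described here are 9 genes: C1QA, C1QB, C1QC, C1R, C1S, C3, C3AR1, C5AR1 and SERPING1. They were chosen by name as parts, receptors and an inhibitor of the complement cascade, and were matched to the rhesus gene identifiers of the expression table through a table of gene symbols. Of the 9 genes, 6 were matched to 1 of the 23191 identifiers each, and all 6 had a mean of at least 10 normalized counts, the level for testing. C1QA, C1QB and C1R were not analysed here. In the RefSeq annotation of assembly T2T-MMU8v2.0, C1QC lies between C1QB and C1QA, and C1S lies beside C1R.

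Polyadenylated RNA was sequenced in 3 libraries from rhesus monkeys (Macaca mulatta) given morphine and 3 libraries from monkeys given saline. The cells were labelled as neurons purified from adult cortex, and all animals were males of 3 to 4 years. Monkeys of the morphine group received the opioid subcutaneously over 90 days in 3 daily injections, with the dose raised in steps to 15 mg/kg by day 29 after a start at 3 mg/kg. In the saline group an equal volume of saline was injected on the same schedule. The protocol names 4 monkeys, 2 per group, and the description labels hold a single animal-like code per group, so at least 2 of the 3 libraries of a group share an animal. The p-values measure the spread between these libraries, are too small as tests over animals, and cannot tell treatment and animal apart.

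Complement is a set of proteins that tag surfaces for uptake by phagocytes. In the classical pathway C1q binds a target and activates the proteases C1r and C1s, which lead to cleavage of C3, whose fragments are read by receptors on microglia and other myeloid cells. In the brain, C1q is made mainly by microglia, and tagging by C1q and C3 is known, chiefly from mice, for its part in the pruning of synapses. The plasma protein encoded by SERPING1, C1 inhibitor, blocks C1r and C1s.

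C1QC, C3 and SERPING1 were higher in the morphine libraries than in the saline libraries, by 2.01, 1.89 and 1.80 fold. C1S, C3AR1 and C5AR1 did not pass the test, and none of the 6 fell. Values are normalized counts, the reads of a gene divided by a size factor for the library, and "rose" or "fell" is used of genes whose limma p, with Benjamini-Hochberg adjustment across the 16595 tested genes, was below 0.05. Of all those genes 27.9% were called, 12.9% as rises and 15.0% as falls, so 3 rises among 6 genes are read against those shares. Among the 14024 genes with a mean of at least 50 normalized counts, as all 6 members have, 35.8% were called when only these were tested. The median log2 fold change of the 6 members was 0.66, against 0.0067 over all genes tested. Members were chosen with earlier results of these data known, so comparisons with all genes are descriptions only. In 5 of the 6 members the 3 morphine values all lay above the 3 saline values, and the same held for 24.1% of all genes tested, with 24.6% in the other direction.

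**Figure D1:**
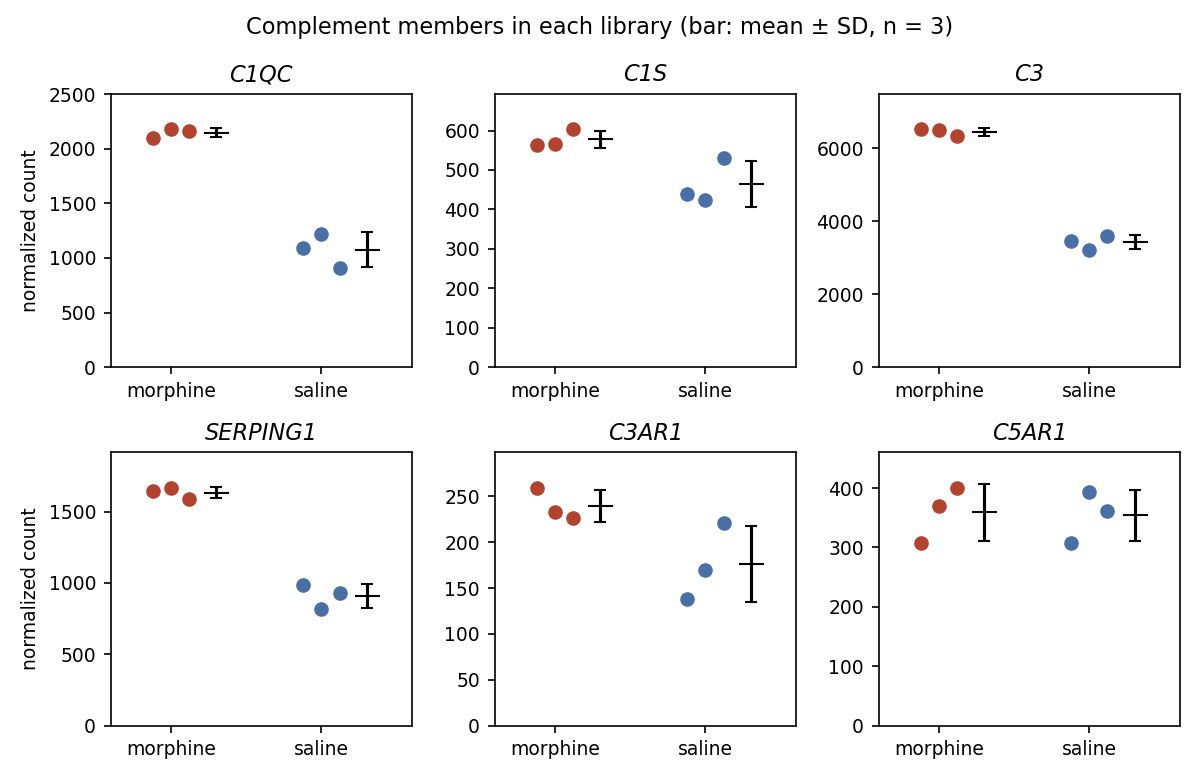
Normalized counts (y axis, from 0) of the 6 measured complement genes in each of the 3 morphine libraries (red) and 3 saline libraries (blue), with the mean and SD of each group as a bar. The groups are apart for C1QC, C3, SERPING1, C1S and C3AR1, with the narrowest gap in C3AR1, and overlap for C5AR1.

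C1QC (ENSMMUG00000020756) encodes the C chain of C1q, the recognition protein of the classical pathway. It had 2101, 2180 and 2164 normalized counts in morphine libraries 1, 2 and 3, against 1094, 1223 and 907.0 in saline libraries 1, 2 and 3. The morphine libraries lay close together, while the saline libraries differed among themselves, with saline library 3 the lowest. The means were 2148 ± 41.6 in morphine and 1075 ± 159 in saline libraries (SD, n = 3 libraries each). The log2 fold change was 1.01 ± 0.119 (SE), with a 95% interval of 0.71 to 1.31 and a limma adjusted p of 0.00571. Of all genes tested, 92.5% had a smaller absolute log2 fold change than C1QC.

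C1S (ENSMMUG00000012786) encodes the protease of the C1 complex that cleaves C4 and C2. It had 564.3, 565.6 and 603.4 normalized counts in the morphine libraries, against 438.1, 423.0 and 530.5 in the saline libraries. All morphine values lay above all saline values, but saline library 3 stood close to them. The log2 fold change of C1S was 0.32 ± 0.102, with a 95% interval of 0.064 to 0.58, and it did not pass in limma (adjusted p = 0.0712). It passed without saline replicate 3 (0.42, limma adjusted p = 0.0266) and in DESeq2 on recovered reads (0.32, adjusted p = 0.0454).

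C3 (ENSMMUG00000008693) encodes the protein on which all activation routes converge. It had 6516, 6489 and 6319 normalized counts in the morphine libraries, against 3464, 3205 and 3587 in the saline libraries. The gap between the groups was several times the spread within either. The means were 6441 ± 107 in morphine and 3419 ± 195 in saline libraries (SD, n = 3 libraries each). C3 had a log2 fold change of 0.92 ± 0.0615, 95% interval 0.76 to 1.07 and a limma adjusted p of 0.00212, and 91.0% of all genes tested had a smaller absolute log2 fold change.

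SERPING1 (ENSMMUG00000012618) had 1646, 1668 and 1587 normalized counts in the morphine libraries, against 985.7, 816.9 and 927.0 in the saline libraries. The groups were far apart, with less spread among the morphine libraries. The means were 1634 ± 41.6 in morphine and 909.9 ± 85.7 in saline libraries (SD, n = 3 libraries each). SERPING1 had a log2 fold change of 0.85 ± 0.084, with a 95% interval of 0.64 to 1.06 and a limma adjusted p of 0.00413. A smaller absolute log2 fold change was found in 89.5% of all genes tested.

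Neither receptor of the small cleavage fragments, which draw and activate myeloid cells, passed the test. C3AR1 (ENSMMUG00000032156), the receptor of C3a, had 259.3, 232.4 and 226.8 normalized counts in the morphine libraries, against 138.1, 169.4 and 220.4 in the saline libraries. The lowest morphine library and saline library 3 were almost level. Its log2 fold change was 0.47 ± 0.182, with a 95% interval of 0.0055 to 0.93, and it did not pass in limma (adjusted p = 0.116). Without saline replicate 3 the value was 0.64 and passed (limma adjusted p = 0.0382), and without saline replicate 1 it was 0.31 and did not (limma adjusted p = 0.206). C5AR1 (ENSMMUG00000009278), the receptor of C5a, had 307.1, 369.5 and 400.7 normalized counts in the morphine libraries, against 307.9, 392.9 and 361.7 in the saline libraries. The 2 groups of C5AR1 values covered nearly the same range. The log2 fold change was 0.018 ± 0.14 (limma adjusted p = 0.933), and its 95% interval runs from 0.792 to 1.30 fold.

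In every fit tried, C1QC, C3 and SERPING1 rose. Their log2 fold changes ranged from 0.89 to 1.11 for C1QC, from 0.87 to 0.95 for C3 and from 0.77 to 0.91 for SERPING1 over 17 other settings. The largest limma adjusted p with 1 library left out was 0.0274 for C1QC, 0.015 for C3 and 0.0222 for SERPING1. The count of members called depended on saline library 3: without it 5 of the 6 members rose, with C1S and C3AR1 added. In that fit 1497 of the 16595 genes tested rose. Without any other single library 3 members rose. In the authors' deposited table the log2 fold changes of C1QC, C3 and SERPING1 were 1.00, 0.91 and 0.84, with adjusted p of 3.24e-22, 4.04e-64 and 1.35e-17. On the recovered reads edgeR called 3 members as rises and DESeq2 called 4, where they called 34.0% and 36.8% of all genes given an adjusted p.

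**Figure D2:**
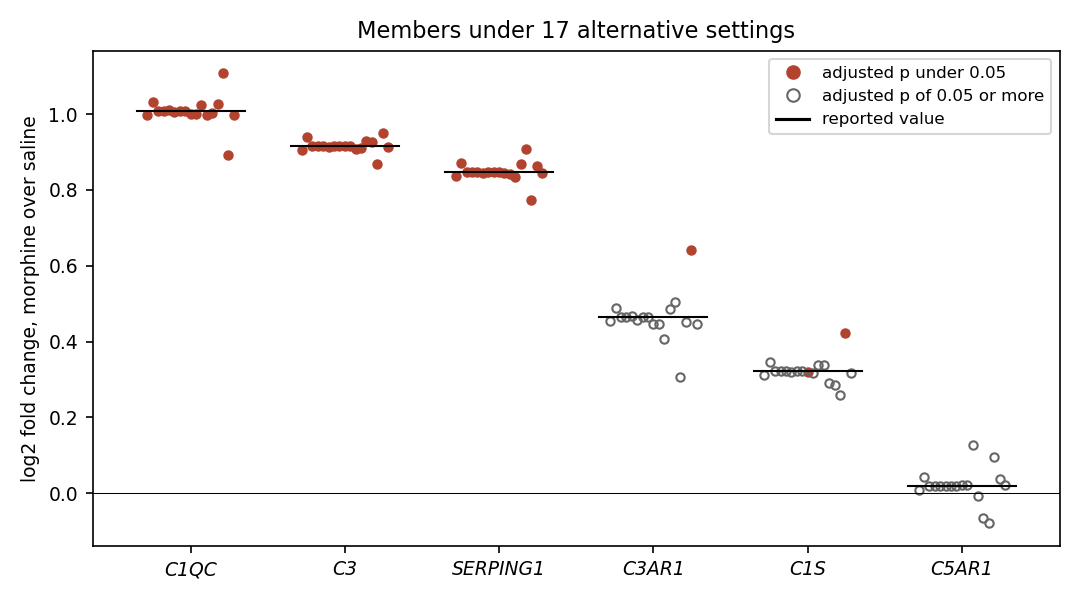
Log2 fold change, morphine over saline (y axis), of the 6 measured members under 17 alternative settings, each point a setting, filled red where the adjusted p was under 0.05 and open where it was not, with the reported value as a line. C1QC, C3 and SERPING1 are red throughout, C3AR1 and C1S only in 1 and 2 settings, and C5AR1 lies on both sides of 0.

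Of 45 other complement genes reported here by function, 37 were matched to an identifier and 29 had a mean of at least 10 normalized counts. Of these 29, 6 rose, 5 fell and 18 did not pass in limma, with a median log2 fold change of 0.16. The rises were CFB, C7, CD46, CLU, CSMD2 and ITGAM, and the falls were MASP1, FCN3, CFP, ITGAX and VSIG4. The share called was 37.9%, against 27.9% of all genes tested. Among genes with a mean of at least 50, tested alone, 13 of 24 of these complement genes were called (54.2%), against 35.8% of all genes.

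Among 9 measured genes of activation, 1 rose and 3 fell (44.4% called, against 27.9% of all genes tested). CFB, the catalytic part of the alternative C3 convertase, had 471.9, 519.3 and 626.5 normalized counts in the morphine libraries, against 166.8, 114.3 and 59.1 in the saline libraries. The groups were far apart, and the saline libraries differed widely among themselves. The log2 fold change of CFB was 2.35 ± 0.394 (limma adjusted p = 0.0134), or 5.10 fold. CFB did not pass with the replicate number as a block (limma adjusted p = 0.0627). FCN3, a ficolin that starts the lectin pathway, had 328.4, 351.3 and 314.2 normalized counts in the morphine libraries and 796.3, 738.7 and 932.3 in the saline libraries, a fall of 2.47 fold (limma adjusted p = 0.00288). MASP1, a protease of the same pathway, averaged 311.3 ± 32.8 in morphine and 449.6 ± 12.2 in saline libraries (limma adjusted p = 0.0145). With the replicate block MASP1 did not pass (limma adjusted p = 0.0502). CFP encodes properdin, which stabilizes the alternative convertase, and averaged 103.7 ± 4.86 in morphine and 164.0 ± 29.2 in saline libraries. It fell by 0.64 on the log2 scale (limma adjusted p = 0.0307), but lost its call when any morphine library, or saline library 2 or 3, was left out (adjusted p from 0.0788 to 0.0935). CFD, the protease that cleaves factor B, averaged 1785 ± 9.62 in morphine and 2044 ± 90.9 in saline libraries and did not pass in limma (adjusted p = 0.0509), though it did in edgeR (adjusted p = 0.0249). COLEC12, a collectin of the cell surface, and C1RL, a relative of C1r, did not pass (log2 fold changes 0.25 and 0.16). COLEC12 passed in DESeq2 (adjusted p = 0.0294), and C1RL ranged from 0.075 to 0.21 over the alternatives, lowest without morphine replicate 2. MBL2, COLEC10 and FCN2 were under the level for testing.

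Of 2 measured genes of the terminal pathway, C7 rose (50% called, against 27.9% of all genes tested), and 2 genes are too few to describe the pathway. C7, a part of the membrane attack complex, had 476.1, 431.2 and 553.4 normalized counts in the morphine libraries, against 95.7, 50.1 and 63.3 in the saline libraries. Every morphine value was several times the highest saline value. The log2 fold change was 2.83 ± 0.255 (limma adjusted p = 0.00352), or 7.11 fold. C8G was near the lowest level tested, with 11.1 ± 2.69 in morphine and 18.4 ± 8.59 in saline libraries, and did not pass (limma adjusted p = 0.315), and C6, C8B and C9 were under it. C5, from which the C5AR1 ligand is cut, is listed with the activation genes and averaged 156.2 ± 65.8 in morphine and 101.5 ± 8.51 in saline libraries, without passing (limma adjusted p = 0.311).

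Of 9 measured regulators reported here 3 rose and 0 fell (33.3% called, against 27.9% of all genes tested). CLU, clusterin, a chaperone that binds the terminal complex, averaged 75918 ± 769 in morphine and 63436 ± 245 in saline libraries (log2 fold change 0.26, limma adjusted p = 0.0141), and did not pass without morphine replicate 1 (adjusted p = 0.0512). CD46, a cofactor for the cleavage of C3b, averaged 833.8 ± 57.4 in morphine and 618.0 ± 58.9 in saline libraries. It rose by 0.43 (limma adjusted p = 0.0265), but the call was lost with any morphine library, or saline library 2 or 3, left out (adjusted p from 0.0521 to 0.0796). CSMD2, a membrane protein of neurons with complement-control domains, averaged 1129 ± 114 in morphine and 736.7 ± 68.2 in saline libraries (log2 fold change 0.61, limma adjusted p = 0.0156), and lost its call without the first library of either group (adjusted p = 0.0545 and 0.0502). Its relative CSMD1 did not pass in limma (log2 fold change 0.25, adjusted p = 0.065), though it did in edgeR (adjusted p = 0.0267). The other regulators, CFI, CD55, VTN, CSMD3 and SUSD4, had log2 fold changes between -0.13 and 0.28 and did not pass, and C4BPA and C4BPB were under the level for testing.

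Among 9 measured receptors and binding proteins 1 rose and 2 fell (33.3% called, against 27.9% of all genes tested). The parts of the integrin receptors for C3 fragments moved in different directions. ITGAM, the alpha chain of complement receptor 3, had 590.9, 583.7 and 654.3 normalized counts in the morphine libraries, against 282.2, 222.5 and 321.7 in the saline libraries. Its groups were well apart, with a log2 fold change of 1.16 ± 0.149 (limma adjusted p = 0.00704). ITGAX, the alpha chain of complement receptor 4, had 57.4, 37.2 and 22.1 normalized counts in the morphine libraries, against 173.7, 146.3 and 175.1 in the saline libraries. ITGAX fell by 2.15 ± 0.347 on the log2 scale (limma adjusted p = 0.0122), but did not pass with the replicate block (limma adjusted p = 0.051). ITGB2, the beta chain that both receptors share, averaged 744.4 ± 78.5 in morphine and 744.5 ± 59.1 in saline libraries (limma adjusted p = 0.989), with a 95% interval of 0.829 to 1.20 fold. VSIG4, a receptor of C3b on macrophages, averaged 63.8 ± 0.99 in morphine and 92.0 ± 13.4 in saline libraries. It fell by 0.51 (limma adjusted p = 0.0275), but did not pass in edgeR (adjusted p = 0.0965), in DESeq2 (adjusted p = 0.188) or with any morphine library or saline library 2 left out (adjusted p from 0.0719 to 0.0814). C1QBP, a mostly mitochondrial protein that can bind C1q, did not pass (log2 fold change 0.046, limma adjusted p = 0.677). CR1, CR2, C5AR2 and CD93, with group means of at most 30.5 normalized counts, did not pass either.

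**Figure D3:**
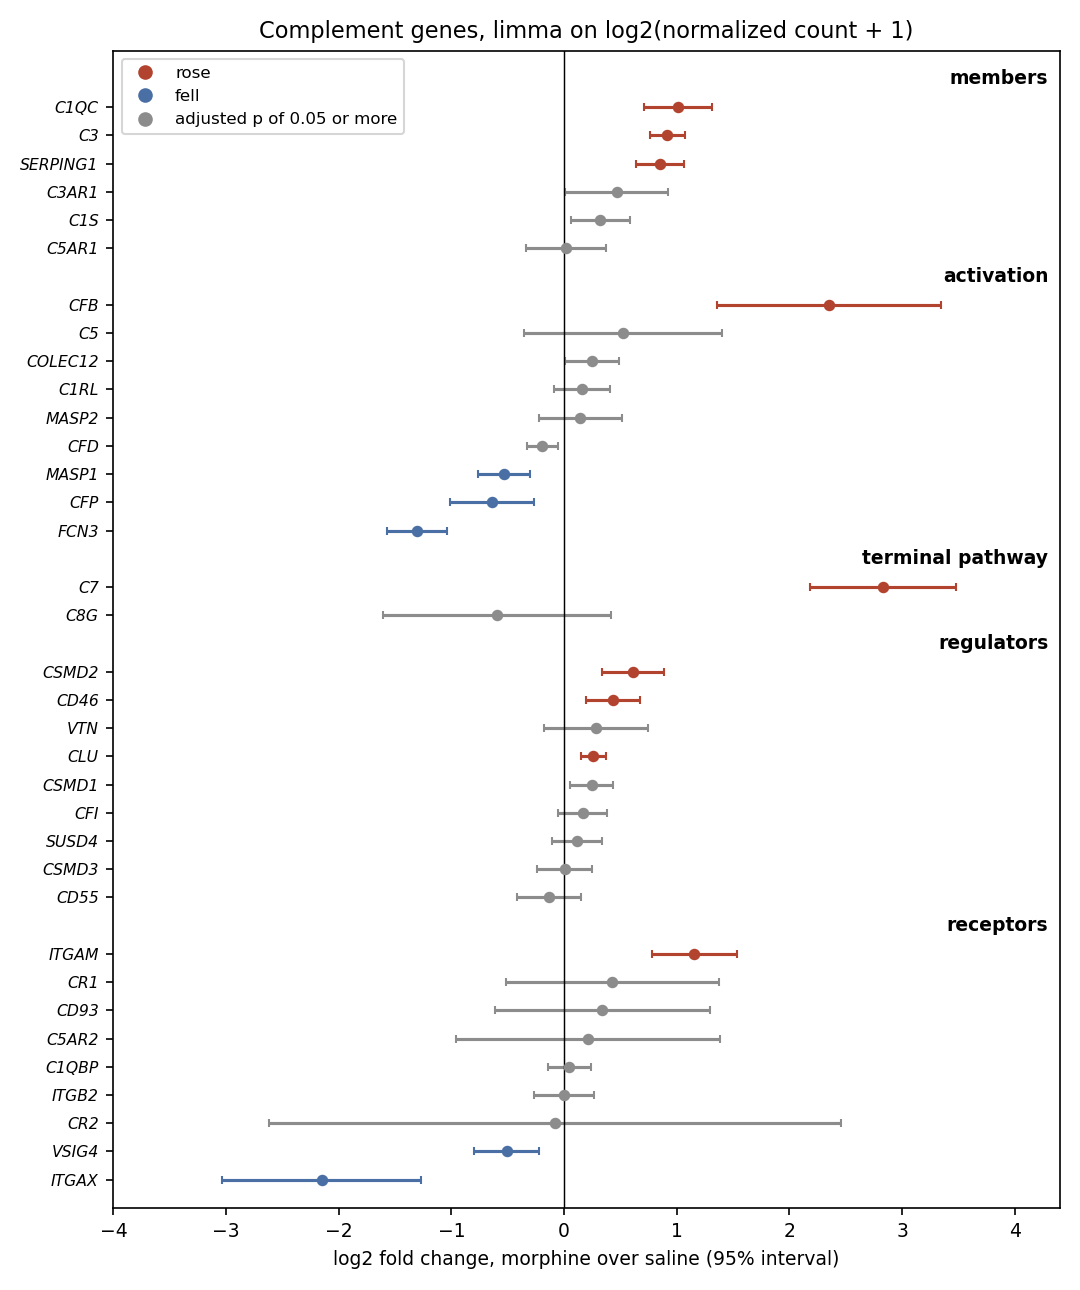
Log2 fold change, morphine over saline (x axis), with 95% intervals for the 6 measured members and 29 other measured complement genes, grouped by role and ordered by value within each group. Red points rose and blue points fell at a limma adjusted p under 0.05, and grey points did not pass. The members lie at or above 0, while the other genes run from -2.15 for ITGAX to 2.83 for C7.

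Within-library differences of 2 pairs of genes were compared after the values had been seen, using the log2 value of one gene minus that of another, so that a scaling of the whole library cancels. The size of such a difference depends on gene length, and only its change between groups is read. C1QC minus CSF1R, the receptor that sustains microglia, averaged -0.46 ± 0.0568 in morphine and -0.60 ± 0.204 in saline libraries (exact two-sided permutation p = 0.4, adjusted p over the 2 differences 0.4), a change of 0.14, smaller than the spread among the saline libraries. That change was 0.022 without saline replicate 3 and 0.22 without saline replicate 2. It depends on the marker chosen, since CSF1R itself rose by 0.87. Of 13 measured microglia markers 5 rose, CSF1R among them, and 2 fell, P2RY12 by 0.47 and PTPRC by 0.51. C3AR1 minus C5AR1 averaged -0.58 ± 0.298 in morphine and -1.02 ± 0.272 in saline libraries (exact two-sided permutation p = 0.2, adjusted p = 0.4), where 3 libraries against 3 cannot go below 0.1. Here the change was 0.45, and 0.28 without morphine replicate 1.

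Markers of the cells that make complement were present in these libraries labelled as neurons. Some rose and some fell, and counts here and in the next paragraph are read against 27.9% called of all genes tested. The shares called were 53.8% for microglia, 20% for perivascular macrophage and 36.4% for fibroblast markers. Of 13 measured microglia markers reported here, ITGAM among them, 5 rose and 2 fell in limma, with a median log2 fold change of 0.39, and their normalized counts summed to 11742 to 12409 in morphine and 9178 to 9724 in saline libraries. CSF1R averaged 2959 ± 170 in morphine and 1615 ± 39.8 in saline libraries, a log2 fold change of 0.87, and LAPTM5 rose by 0.44, whereas P2RY12, a receptor of resting microglia, fell by 0.47. Of 5 perivascular macrophage markers 1 rose, with sums of 1217 to 1290 in morphine and 877.0 to 1064 in saline libraries. Of 11 fibroblast markers 4 rose and 0 fell. The rises were COL1A1, COL1A2, COL3A1 and ISLR, by 3.54, 2.34, 1.11 and 3.15 on the log2 scale. The fibroblast list summed to 11184 to 11441 in morphine and 9258 to 9627 in saline libraries. Its 3 most abundant markers, PDGFRA, DCN and OGN, did not pass (log2 fold changes 0.16, 0.12 and 0.064), and PDGFRA also marks precursors of oligodendrocytes.

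Of 11 astrocyte markers 2 rose and 6 fell, and they summed to 265549 to 268414 in morphine and 316304 to 321656 in saline libraries. Such sums lean on the most abundant genes of a list. Among these markers SLC1A3 averaged 82480 in morphine and 123564 in saline libraries, while GFAP and AGT were the 2 that rose. Of 12 neuronal markers 2 rose and 6 fell, with sums of 205766 to 210152 in morphine and 256491 to 266234 in saline libraries. Endothelial and mural markers, with 2 rises and 3 falls among 10, summed to 18807 to 24503 in morphine and 19978 to 20934 in saline libraries. Their spread in morphine follows SLC2A1, at 10010, 10307 and 4424 in morphine libraries 1, 2 and 3. Oligodendrocyte markers, with 4 rises and 2 falls among 8, summed to 267571 to 269966 in morphine and 260976 to 265393 in saline libraries. Most of that sum was MBP, which averaged 202716 in morphine and 192902 in saline libraries and did not pass. Of 3 choroid plexus and ependymal markers FOXJ1 rose and CLIC6 and KL fell, with sums of 436.2 to 615.3 in morphine and 662.3 to 916.7 in saline libraries. Of 4 measured markers of neutrophils and monocytes 0 rose and ELANE fell. CSF3R averaged 65.0 ± 19.4 in morphine and 21.7 ± 21.2 in saline libraries without overlap, and did not pass (log2 fold change 2.21, limma adjusted p = 0.172). Its saline values were 1.97, 44.1 and 19.0, and the low saline library 1 weighs heavily on that fold change. The matched genes of that list, with S100A9, which was under the level for testing, summed to 703.3 to 869.3 in morphine and 584.1 to 693.9 in saline libraries. Most of that sum was VCAN, which precursors of oligodendrocytes also express, at 669.9 ± 59.0 in morphine and 563.7 ± 44.8 in saline libraries. The hepatocyte genes ALB and APOA1 were under the level for testing, while SERPINA1 and TF, which brain cells also express, rose by 0.87 and 0.31, and these 4 genes together summed to 8611 to 9085 in morphine and 6904 to 7155 in saline libraries. No marker matched to an identifier was at 0 in all libraries. The part of these markers in the complement values was not tested, and in bulk RNA more cells of a type and more RNA per cell cannot be told apart.

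**Figure D4:**
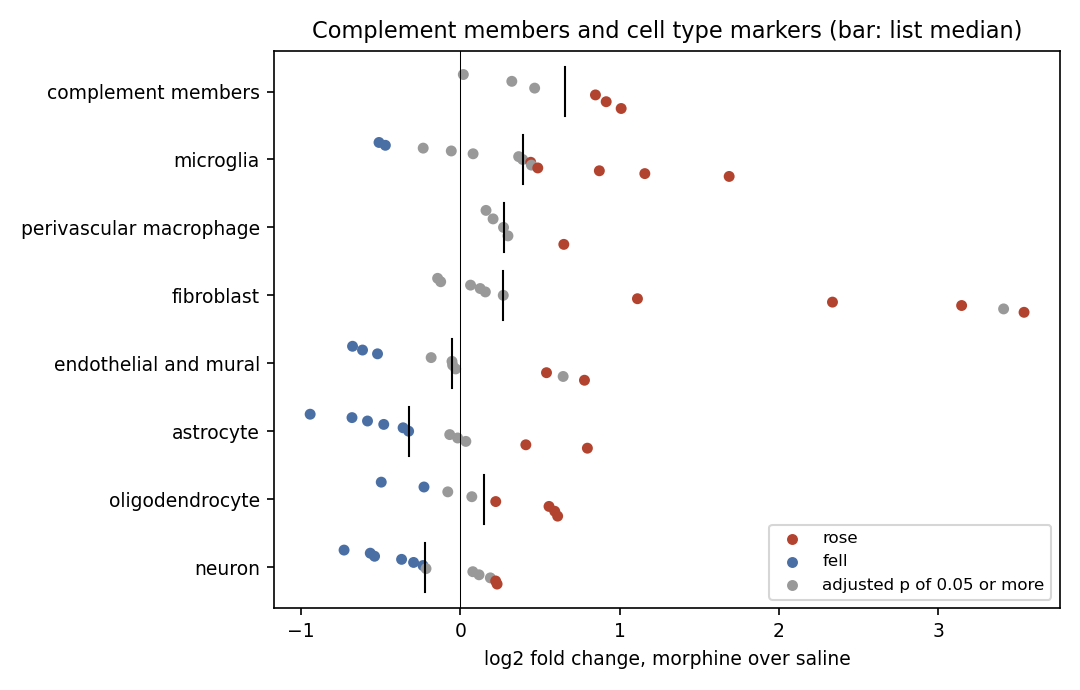
Log2 fold change, morphine over saline (x axis), of the 6 measured complement members and of the measured markers of 7 cell types (y axis), each point a gene and each bar the median of its list. Red points rose and blue points fell at a limma adjusted p under 0.05, and grey points did not pass. The medians are 0.66 for the members, 0.39 for microglia, -0.32 for astrocytes and -0.23 for neurons.

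For each member, the genes most like it were taken as those with the smallest root mean square difference in centred log2 values over the 6 libraries, among 10848 other genes with a symbol and a mean of at least 100 normalized counts. The closest to C1QC were CCDC78, KRT80 and SERPINA1, with differences of 0.0605, 0.0828 and 0.097. The closest to C3 were STK36, ALG1 and VPS28, with 0.0501, 0.0501 and 0.0526. SERPING1 was closest to ALG1, C19H19orf44 and ISLR2, with 0.035, 0.0432 and 0.0468, so ALG1 stood near both C3 and SERPING1. C1S was closest to DGUOK, CACNA1E and TGFB1 (0.0306, 0.0384 and 0.0399), C3AR1 to EPHB2, METTL1 and INHA (0.0498, 0.0609 and 0.0796) and C5AR1 to CMC1, RSBN1L and GIT2 (0.0406, 0.0582 and 0.0603). With 6 libraries in 2 groups this likeness follows mainly the difference between the groups, and it is a description without a test.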

How the data were processed

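The authors deposited, per the file headers, a signal for each gene and library (normalized counts, that is reads over a size factor), and from their own comparison log2 fold changes, standard errors and a statistic as scores, and p-values. Bowtie2 2.1.0 and StringTie appear in the submitters' processing notes beside DESeq2 1.18.1 and hg19, without roles. The annotation and strand used for counting are not given in the sources used here. All values (100%) were whole multiples, within 0.001 reads, of what 1 read is worth, which gave 31238653 to 36345095 reads per library, and DESeq2 called 6105 genes and edgeR 5636 on them. A second deposited table is a subset and was not used.

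Symbols matched 15436 of 23191 identifiers. Genes with a mean of at least 10 were fitted on the log2(value + 1) scale by group alone, without trend, with limma 3.58.1 (R 4.3.3). The added 1 makes the fold changes of low genes smaller. A single low library can make them larger, since the mean is taken on the log2 scale. The alternatives were TMM and upper quartile scaling, a filter at 50 or none, a pseudocount of 0.5 or 5, the replicate block, each library left out, an intensity trend, DESeq2 1.42.0, edgeR 4.0.16 and the authors' deposited comparison. The fits were also run on simulated counts with independent libraries and the same relative spread for every gene. Those settings differ from libraries that share animals, so they do not test the fits on such data. Libraries of a group differed by more than sampling noise (median chi-square per gene 2.60 to 3.19, where noise gives 0.455).

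Members and lists were chosen with earlier results of these data known. Named were all members, each other complement gene called, up to 3 per list of highest mean, and the 3 genes most like each member. Some marker genes were named by choice. Some listed genes are not reported here, and stand in no list count, median or sum. Ratios among the C1Q genes and of C1R to C1S, which had been planned, were not computed, since C1QA, C1QB and C1R were not analysed.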

Additional observations from a re-analysis of the deposited data

How the results depend on the processing

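The calls of C1QC, C3 and SERPING1 held in all 17 alternatives. The count of members that rose was 3 to 5 with 1 library left out. Over all genes the count changed was 4631; it was 2993 without a filter (1363 rises, 1630 falls) and 2536 to 3181 with 1 library left out (1072 to 1497 rises, 1464 to 1684 falls). Same-numbered libraries did not deviate together over the genes tested (correlations -0.0563, -0.0039 and -0.0284). This does not settle whether the numbers stand for pairs, since a shared effect on few genes would not show. With the replicate number as a block 1577 genes passed (681 rises, 896 falls), all 3 member rises among them, and 3 other complement genes (2 rises, 1 fall) in place of 11 (6 and 5). Those 3 were C7, ITGAM and FCN3. With 1 library left out 7 to 10 of the other complement genes passed (4 to 5 rises, 3 to 5 falls), and without a filter 3 fell. Scalings moved the median of all genes by at most 0.0234. The small log2 fold change of C5AR1 took either sign with 1 library left out (-0.079 to 0.13), as did those of ITGB2 (-0.079 to 0.073) and C1QBP (-0.022 to 0.081). That of ITGB2 was 0.021 with upper quartile scaling, 0.0012 in DESeq2 and 0.00034 in edgeR. Why these values moved was not tested.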
